A study of Drosophila melanogaster with 2 samples.

Results

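Weak promoter peaks are low entries at gene starts in a pooled peak list of the zinc finger protein Sry-delta that are absent from the optimal set; per the README files that list holds peaks and background together, so not every entry need be a bound site. They were chosen by 3 rules: a pooled peak that overlapped no peak of the deposited optimal set by 1 bp or more, a summit no more than 500 bp from the start of a protein-coding transcript, and a place on chromosome arm 2L, 2R, 3L, 3R or X outside pericentromeric sequence. The rules were met by 4435 of the 30000 pooled peaks, and 21622 pooled peaks lay outside the optimal set on the same arms and spans. They are set beside the 4708 promoter peaks of the optimal set (optimal promoter peaks) and the 17187 pooled peaks that also overlapped no optimal peak but lay farther from any coding start (weak distal peaks).

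The data are chromatin immunoprecipitation followed by sequencing (ChIP-seq), with an antibody against green fluorescent protein (GFP), from whole Drosophila melanogaster embryos of both sexes aged 0 to 24 hours. All embryos came from the strain Sry-delta-GFP, a transgenic line in which GFP is fused to the C-terminus of Sry-delta; the promoter that drives the fusion (not given in the sources used here) and the state of the untagged gene were not known. The 2 libraries are labelled biological replicates 3 and 4 of 1 group, so there is no contrast between conditions, and no input was used here. Peak lists were deposited for each replicate, for both pooled, and for the optimal set, which is labelled as thresholded by the irreproducible discovery rate. That set was exactly the 6318 pooled peaks with the highest signal. A peak outside it was therefore not shown to have failed to reproduce. Read depth is unknown.

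A promoter is the DNA around the point where transcription of a gene begins. In flies, broadly active genes often carry the DNA replication-related element (DRE), Motif 1 or Motif 7, bound by factors such as DREF and M1BP, and often lie in head-to-head pairs. Developmentally regulated genes more often carry an Initiator, a TATA box or a downstream pause button, and many have GA-rich sites of the GAGA factor (GAF) and paused RNA polymerase. Sry-delta belongs to the ZAD zinc finger family of insects and is known as an activator of the anterior determinant gene bicoid.

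The sequences of 6 weak promoter peaks show what lay beneath their summits. One is given for 5 of the 6 sequence elements that were more frequent at the summits than beside them, taken from the member with the highest pooled signal that held it within 50 bp of the summit, and one comes from the highest member with none of 15 elements searched; 4 of the 5 arms were drawn on. Each run is 50 bases on either side of the summit from the RefSeq Release 6 (dm6) genome, read 5′ to 3′ on the + strand. Capitals mark the match to the element on either strand. The first holds a DRE, and its summit lies 34 bp downstream of the start of Ufsp2, a protease that matures the ubiquitin-like modifier UFM1. The second holds Motif 1, with its summit at the start of Strump, a subunit of the WASH complex of endosomal actin. The third holds a pause button, with its summit at the start of Cln7, a lysosomal membrane protein. The fourth holds a GAGAGA repeat, and its summit lies 150 bp upstream of a start of CG2258, inside an intron, and the next holds the core CGATA, with its summit in untranslated exon sequence of Ranbp16, a nuclear transport receptor. The last, whose summit lies 103 bp upstream of CG17568, held no element.
Ufsp2, chr3L:15576554-15576654, + strand: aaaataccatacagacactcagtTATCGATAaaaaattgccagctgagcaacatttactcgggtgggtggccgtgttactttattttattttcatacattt
Strump, chr3L:16121953-16122053, + strand: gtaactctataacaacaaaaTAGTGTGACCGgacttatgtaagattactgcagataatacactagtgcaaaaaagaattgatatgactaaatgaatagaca
Cln7, chr3L:7345135-7345235, + strand: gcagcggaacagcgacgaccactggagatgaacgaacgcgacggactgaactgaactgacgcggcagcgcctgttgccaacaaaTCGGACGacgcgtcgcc
CG2258, chrX:8100171-8100271, + strand: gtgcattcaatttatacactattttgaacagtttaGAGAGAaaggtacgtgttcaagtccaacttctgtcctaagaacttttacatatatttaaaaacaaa
Ranbp16, chrX:15933757-15933857, + strand: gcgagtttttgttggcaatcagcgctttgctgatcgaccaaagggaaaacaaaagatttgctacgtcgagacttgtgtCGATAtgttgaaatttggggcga
CG17568, chr2L:19181755-19181855, + strand: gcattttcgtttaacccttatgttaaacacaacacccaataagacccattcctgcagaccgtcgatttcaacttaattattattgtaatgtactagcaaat

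These 6 peaks had pooled signals from 93.1 at Ufsp2 to 99.7 at Ranbp16. Strump had signals of 44.7 in replicate 3 and 50.2 in replicate 4, and Ufsp2 had 52.9 and 40.1. CG2258 was less even, with ranks of 9860 among 30000 peaks in replicate 3 and 5945 in replicate 4. A window without any of the 15 elements within 50 bp of its summit, like that of CG17568, was found for 503 of the 3479 members searched on 4 of the 5 arms (14.5%).

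Peak height is given as the deposited signal value of the pooled list, which the authors computed, and it is what separated the weak peaks from the optimal set. The optimal set was exactly the 6318 pooled peaks with the highest signal: the lowest optimal peak had a signal of 99.81 and the highest peak outside the set 99.80. Differences in height between weak and optimal peaks are therefore the rule itself and are given only as a description. The weak promoter peaks ranged in signal from 18.2 to 99.8 with a median of 36.1, and the optimal promoter peaks from 99.8 to 7028 with a median of 304. Weak distal peaks had a median of 27.8. A q value of 0.05 or below was given to 2290 weak promoter peaks (51.6%), to all 4708 optimal promoter peaks and to 5315 weak distal peaks (30.9%). A −log10 q value of 4.25, the maximum in the list, was recorded for 799 weak promoter peaks (18.0%), for all 4708 optimal promoter peaks and for 1260 weak distal peaks (7.33%).

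The members just below that limit lay at genes of many kinds. The highest, in an intron of mei-P26, a TRIM-NHL protein of germline differentiation, had a pooled signal of 99.76, with 63.4 in replicate 3 and 43.6 in replicate 4. The next 2 lay at wrapper, an immunoglobulin protein of midline glia (99.74), and at Ranbp16 (99.67). Just above the limit, the lowest optimal promoter peaks lay at Noc2 (99.83), Pex14 (99.88) and CG15747 (99.89). Cht7, a chitinase, had 31.5 in replicate 3 and 66.7 in replicate 4, and Pex3, a peroxisome biogenesis factor, had 39.8 and 66.8. Of the 12 highest members, those at mei-P26 and CG14478 belonged to genes with an optimal peak at another place, and the other 10 to genes with none. At CG14478 the replicates were far apart, at rank 3927 in replicate 3 and 17750 in replicate 4, whereas Sobp, a binding partner of the eye factor sine oculis, ranked 6872 and 5370.

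At the middle and the bottom of the range, fewer members had a peak in both replicates. The median members lay at CG18135, Ref1 (an RNA export adaptor) and cv-2 (crossveinless 2, a BMP-binding protein), with a pooled signal of 36.1 each. Ref1 had 16.4 in replicate 3 and 26.5 in replicate 4, cv-2 had 27.3 and 25.6, and CG18135 had 31.2 in replicate 3 with no overlapping peak in replicate 4. The 3 lowest, at CG14881, sick and CG30377, each had a pooled signal of 18.2 and no peak in replicate 4. CG14881 and CG30377 had one in replicate 3, and sick had none.

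Most weak promoter peaks were found in both embryo collections. Of the 4435 members, 3234 overlapped a peak in both replicate lists (72.9%, exact 95% interval 71.6% to 74.2%), as did 4697 optimal promoter peaks (99.8%, 99.6% to 99.9%) and 8980 weak distal peaks (52.2%, 51.5% to 53.0%). The background over all pooled peaks outside the optimal set was 56.5%. A further 10.8% of members were in replicate 3 alone, 14.3% in replicate 4 alone and 2.03% in neither. The share followed height: it was 96.5% among the 1109 members with the highest signal, 86.5% and 67.2% in the next groups down and 41.6% among the 1109 with the lowest. The pooled list was derived from the alignments of the same libraries as the replicate lists, and the intervals cover counting over peaks only, so no test was made.

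Within the members found in both lists, heights in the replicates were only loosely related. Spearman's rho between replicate signals was 0.37 over 3234 members, 0.94 over 4697 optimal promoter peaks and 0.33 over 8980 weak distal peaks; these are descriptions across peaks that share 2 libraries, and members span a narrower range of heights. On the log2 scale, replicate 4 over replicate 3 had a median ratio of 0.23 at members (SD 0.74) and 0.41 at optimal promoter peaks (SD 0.46). Each list has its own scale, so the spread of the ratio is the informative value.

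**Figure D1:**
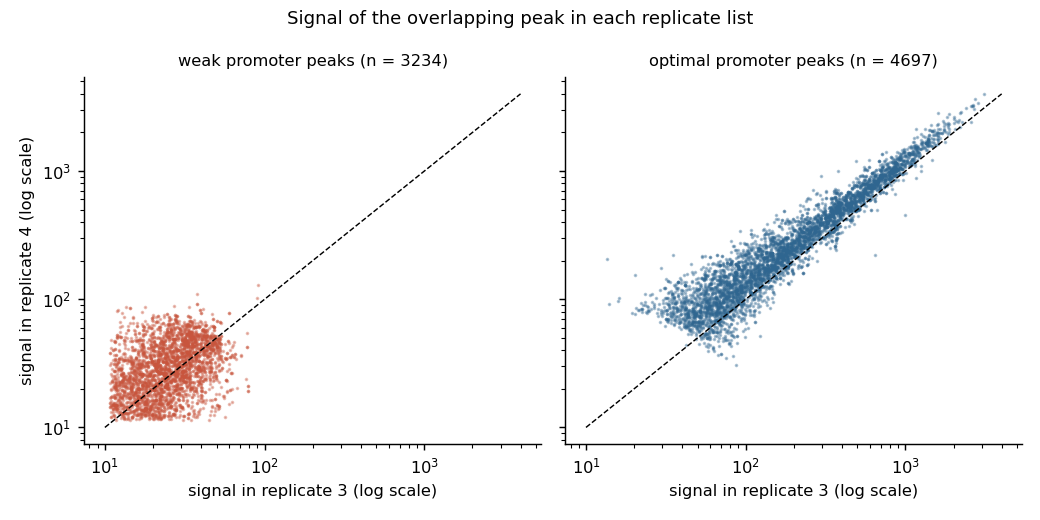
Signal of the overlapping peak in replicate 4 against replicate 3, on log axes, for weak promoter peaks (left, one point for each of 3234) and optimal promoter peaks (right, 4697); the dashed line marks equal signal. Weak promoter peaks form a broad cloud (rho 0.37) and optimal promoter peaks a narrow band (rho 0.94).

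Weak summits were spread on both sides of the start, whereas optimal summits were concentrated just upstream. Of the members, 2413 lay upstream of the nearest coding start (54.4%, 52.9% to 55.9%), against 3739 optimal promoter peaks (79.4%, 78.2% to 80.6%). The stretch from 1 to 150 bp upstream held 25.7% of members and 64.0% of optimal promoter peaks. The median distance to the start was 156 bp for members and 55 bp for optimal promoter peaks, and 31.4% of members lay over 250 bp away, against 8.31%. The replicates differed in the upstream share: the same rule gave 49.9% in the list of replicate 3 (4562 peaks) and 56.1% in that of replicate 4 (4299 peaks). Both were below the optimal share.

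**Figure D2:**
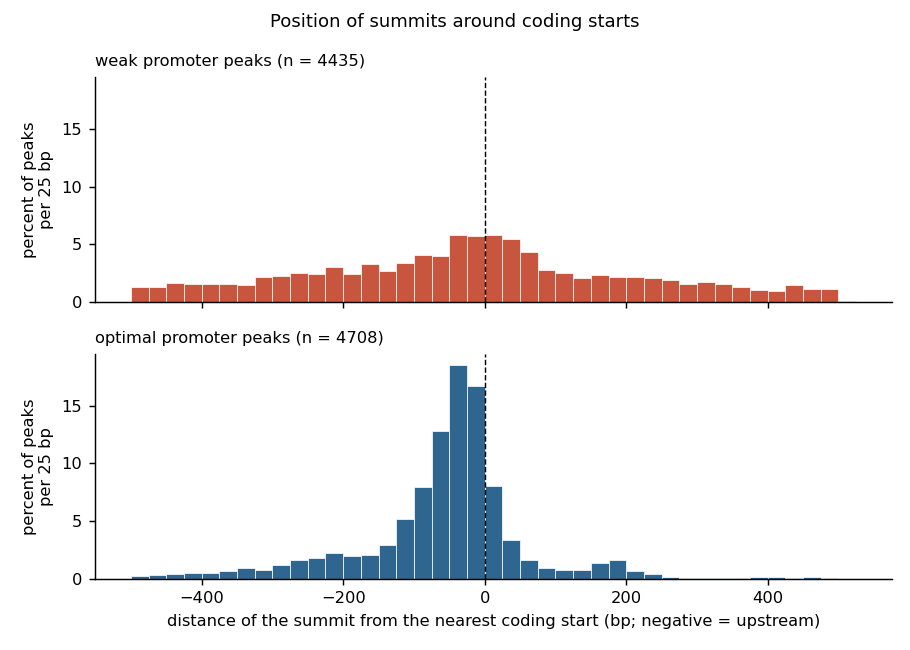
Distance of the summit from the nearest coding start in bp (negative is upstream) for weak promoter peaks (top) and optimal promoter peaks (bottom), as the percent of peaks in each bin of 25 bp. Weak summits are spread over the whole window, with 54.4% upstream, and optimal summits cluster just upstream of the start, with 79.4% upstream.

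The same difference appeared in where the summits fell on the gene models. Sequence outside coding genes held 29.1% of weak promoter summits and 60.8% of optimal promoter summits. Untranslated exon sequence held 30.7% and 22.8%, introns held 28.4% and 13.7%, and coding exons held 11.8% and 2.66%. Weak distal summits lay mostly in introns (55.8%). The limits of the window were set by the rule: the members just inside it lay at B4, if (inflated, an integrin alpha subunit) and bip1, each 500 bp from the start, with pooled signals of 88.8, 72.3 and 68.9. The nearest peaks outside it lay 501 bp from the starts of dpr2 (91.0), MtnA, a metallothionein (53.5), and Synd, syndapin (42.1).

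Starts with weak peaks alone had a divergent neighbour less often than starts with optimal peaks alone. They had one more often than starts with no pooled summit. A start of another gene on the opposite strand within 1000 bp upstream was found for 687 members (15.5%, 14.4% to 16.6%), for 2313 optimal promoter peaks (49.1%, 47.7% to 50.6%) and for 31.8% of all 19291 coding starts. The share of all starts includes those with optimal peaks, which the rule largely bars from the members, so it is not a like comparison. Counted over starts, it was 20.5% of the 4166 starts with weak peaks alone, against 61.2% of the 6695 with optimal peaks alone and 13.1% of the 8239 with no pooled summit. The median distance from the start to the nearest start of another gene was 2369.5 bp for starts with weak peaks alone, against 446 bp for optimal peaks alone and 2484 bp for no pooled summit. On both measures the values of starts with weak peaks alone lay nearer to those of starts with no pooled summit. The median distance from a member's summit to the edge of the nearest optimal peak was 3859 bp, and 12.8% lay within 1000 bp.

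Members overlapped one another in part. They formed 3526 regions once overlapping members were merged, of which 830 held 2 members, and their nearest genes numbered 2987. In these 830 regions the lower summit lay to the right of the higher one in genome coordinates in 84.5% (81.8% to 86.9%), at a median spacing of 219 bp. How the peak caller places neighbouring summits is unknown, and its part in this was not tested. A width of exactly 484 bp was recorded for 98.1% of members and 12.3% of optimal promoter peaks. With 1 member kept for each merged region, 55.3% lay upstream of the start.

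Counted over the 13749 coding genes on these arms, 3238 had a weak peak within 500 bp of a start (23.6%) and 5374 an optimal one (39.1%). Weak peaks alone were found at 2582 genes (18.8%), both kinds at 656 (4.77%), optimal peaks alone at 4718 (34.3%) and no pooled summit at 5768 (42.0%). Read from the peaks, 3388 members (76.4%, 75.1% to 77.6%) had a nearest gene without any optimal summit at its starts. The rule bars peaks that overlap an optimal one, and only 130 of 19291 starts had both kinds. That share therefore follows in part from the rule and is a description. By arm, a weak peak was at 26.4% of genes on X, 24.9% on 3L, 24.6% on 2R, 22.1% on 2L and 20.8% on 3R.

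Genes with both kinds of peak were the longest class, and a weak peak was more common at genes with more starts. The median length was 2827.5 bp for genes with weak peaks alone and 9474 bp for genes with both kinds, against 2486 bp for optimal peaks alone and 1498 bp for genes with no pooled summit. More than 10000 bp was spanned by 20.3% of genes with weak peaks alone and 49.1% of genes with both, against 10.1% and 9.78%. A weak peak was found at 17.3% of genes with 1 coding start, 32.2% with 2, 52.8% with 3 and 74.1% with 4 or more. The number of windows grows with the number of starts. Among the 10128 genes with a single start, 1708 had weak peaks alone (16.9%), with a median length of 2037.5 bp, against 2241.5 bp for optimal peaks alone and 1360 bp for no pooled summit.

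In genes with both kinds, the weak peak mostly lay downstream of the optimal one. In 538 of the 656, no single start had both; among these the first weak start lay downstream of the first optimal start in 421 (78.3%, 74.5% to 81.7%) and upstream in 117, at a median spacing of 2797.5 bp. Among the 610 genes with both kinds and 2 or more starts, the most 5′ start had a weak peak in 25.9%, against 80.8% of the 874 such genes with weak peaks alone. Of the 1948 genes with an optimal summit and 2 or more starts, 88.6% had it at the most 5′ start. The rule left few starts with both kinds, so a weak start could then mostly lie only downstream. These shares follow in part from the rule and are given as a description. The genes ftz-f1, a nuclear receptor, and cnc, a bZIP factor, had both kinds, with pooled signals of 48.1 and 77.2 at the weak peak and 396 and 387 at the optimal one. For ftz-f1 the weak peak had 24.9 in replicate 3 and 24.3 in replicate 4.

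The sequence beneath weak summits held core promoter elements, in other proportions than beneath optimal summits. Matches to 15 elements were sought up to 100 bp from the summit and in windows of equal length centred 500 bp to either side; summit and right-hand window were compared over the 4435 members by two-sided exact McNemar tests with Benjamini-Hochberg adjustment over the 15. Of the 15, 6 were more frequent at the summit (adjusted p below 0.05) and 0 less frequent, also 0 at an unadjusted p below 0.05. Against the left-hand window, an alternative chosen after seeing the data, the same 6 were more frequent and 1, the AP-1 site, less frequent. The rule had placed every summit near a start, so these tests set sequence near starts against sequence farther from them, and the shares below are a description of the members. Shares in optimal promoter peaks, weak distal peaks and starts are given beside them as a description, with no test. Members that overlap share bases and are not independent; with 1 member per merged region 6 elements also passed.

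Motif 1, the site of M1BP (1 mismatch allowed), had the highest ratio, with 255 members at the summit (5.75%, 5.08% to 6.48%) against 1.15% at the flanks, a ratio of 5.0. It was in 17.8% of optimal promoter summits, against 1.41% of their flanks, and in 0.803% of weak distal summits. The same rule gave 4.98% at summits and 1.36% at flanks in the list of replicate 3, and 5.93% and 1.09% in that of replicate 4. DRE, written TATCGATA, was in 60 members (1.35%, 1.03% to 1.74%) against 0.507% of their flanks, a ratio of 2.67. In optimal promoter summits it was in 18.6%. Motif 7 was in 5.43% of members against 2.82% of flanks (ratio 1.93), and in 22.5% of optimal promoter summits.

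For 2 of the 6, the share was larger in weak than in optimal promoter summits. The pause button, a GC-rich word found downstream of starts, was in 677 members (15.3%, 14.2% to 16.4%), against 10.6% of flanks (ratio 1.44), and in 9.92% (9.08% to 10.8%) of optimal promoter summits, where it was less frequent than in the flanks (12.5%). The repeat GAGAGA was in 554 members (12.5%, 11.5% to 13.5%), against 8.79% of flanks (ratio 1.42), and in 6.56% (5.87% to 7.31%) of optimal promoter summits. It is a site of both GAF and the protein CLAMP, and a match does not show which protein, if any, was bound. The pause button was in 18.4% of members at or downstream of the start and 12.6% of those upstream; GAGAGA showed the opposite, with 9.35% and 15.1%.

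The core CGATA, shared by DRE and the sites of the insulator protein BEAF-32, had the widest gap in share between the 2 kinds of promoter peak among the 15. It was in 25.7% of members (24.4% to 27.0%), against 22.57% of flanks (ratio 1.14), and in 60.4% of optimal promoter summits (59.0% to 61.8%). The Sry-delta consensus known from binding in vitro (2 mismatches allowed) did not pass the test at weak summits: 65 members held it (1.47%, 1.13% to 1.86%), against 1.67% of flanks (ratio 0.88, exact McNemar adjusted p = 0.529). Of optimal promoter summits 7.54% held it, against 1.48% of their flanks. Initiator (43.7% against 41.6%), Motif 6 (2 mismatches allowed), the TATA box (1 mismatch allowed), the E-box CANNTG and the sites of Zelda, AP-1, Pleiohomeotic and CTCF did not pass it either, with exact McNemar adjusted p from 0.114 for the Initiator to 0.963 for the Pleiohomeotic site GCCATN. The AP-1 site was in 1.71% of weak summits, against 2.38% of flanks, with an exact McNemar adjusted p of 0.201 against the right-hand and 0.0156 against the left-hand window. A p that misses the threshold does not show that shares are equal.

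**Figure D3:**
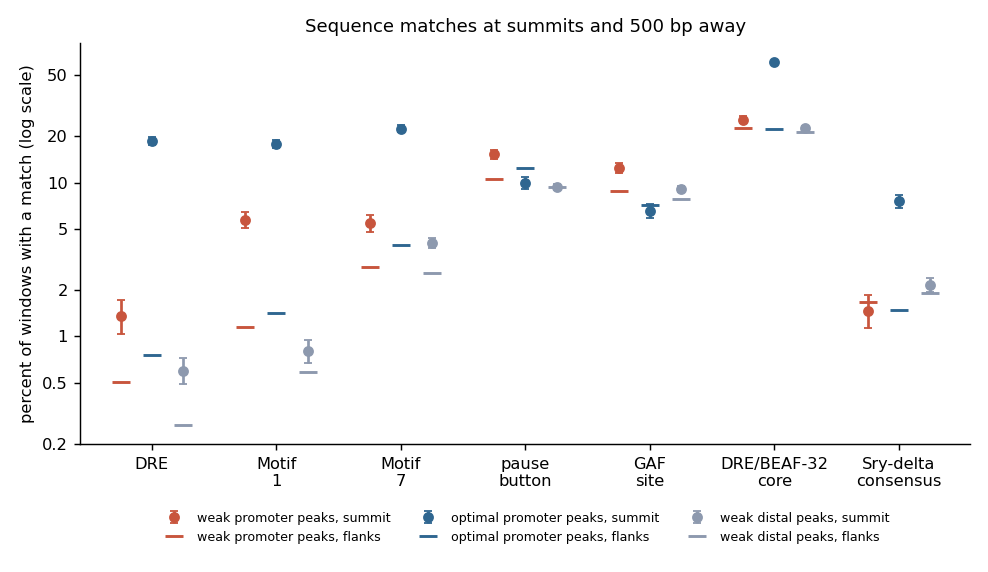
Percent of windows, reaching 100 bp to each side of their centre, with a match (log axis) at the summit (points, with exact 95% intervals) and at the flanks 500 bp away (bars) for weak promoter peaks, optimal promoter peaks and weak distal peaks; the GAF site is GAGAGA and the DRE/BEAF-32 core is CGATA. Weak promoter summits hold more matches to the pause button (15.3%) and GAGAGA (12.5%) than optimal ones (9.92% and 6.56%), fewer matches to DRE (1.35% against 18.6%), and a Sry-delta consensus share (1.47%) near that of their flanks (1.67%).

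Windows of the same length centred on starts gave a comparison in which the place of the summit entered only through the class of the start. Motif 1 was in 8.14% of the 4166 starts with weak peaks alone, against 18.7% of starts with optimal peaks alone, 1.46% of starts with no pooled summit and 9.0% of all coding starts. In the same order, DRE was in 1.51%, against 16.4%, 0.813% and 6.43%, and Motif 7 was in 5.71%, against 21.1%, 3.58% and 10.2%. The Sry-delta consensus was in 1.85%, against 6.47%, 2.00% and 3.53%. For the pause button the order was another: 20.9% (19.7% to 22.2%) of starts with weak peaks alone, against 13.6% with optimal peaks alone, 15.7% with no pooled summit and 16.1% of all coding starts. GAGAGA was in 14.8% (13.7% to 15.9%), against 7.29%, 9.12% and 9.78%. The Initiator was in 53.5%, against 40.5%, 57.1% and 50.4%, and CGATA was in 26.7%, against 57.1%, 26.3% and 37.2%. The GC content within 250 bp had a median of 42.7% at starts with weak peaks alone, against 40.5% with optimal peaks alone and 42.7% with no pooled summit.

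Motif 1 was concentrated in the highest members, and GAGAGA was not. In order of rising signal, the 4 groups of 1108 or 1109 members held Motif 1 in 2.25%, 2.61%, 5.05% and 13.1%, and DRE in 0.721%, 0.631%, 0.993% and 3.07%. GAGAGA was in 10.01%, 11.1%, 15.7% and 13.2%, and the pause button in 16.1%, 15.3%, 15.3% and 14.4%. Members in both replicate lists held Motif 1 in 6.74% and GAGAGA in 13.7%, against 3.08% and 9.24% of members not in both. Members at genes without an optimal summit held Motif 1 in 7.00% (6.16% to 7.91%), against 1.72% (1.02% to 2.70%) of members at genes with one, while GAGAGA was in 11.5% and 15.7%.

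Followed down the pooled list, the shares changed gradually across the limit of the optimal set. Among promoter peaks, Motif 1 was in 20.1% at ranks 4001 to 5000, 19.0% at ranks 5001 to 6318, 13.8% at ranks 6319 to 9000, 8.45% at ranks 9001 to 12000 and 2.76% at ranks 12001 to 15000. DRE was in 34.6% at ranks 1 to 1000, 6.20% at ranks 5001 to 6318 and 3.58% at ranks 6319 to 9000. GAGAGA was in 4.97%, 9.30% and 13.5% at the same ranks and in 15.5% at ranks 9001 to 12000. The Sry-delta consensus was in 21.6% of promoter peaks at ranks 1 to 1000, and by ranks 5001 to 6318, still inside the optimal set, in 2.11%, close to the 2.03% at ranks 6319 to 9000. The upstream share was 66.3% on both sides of the limit and 50% at ranks 12001 to 15000.

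**Figure D4:**
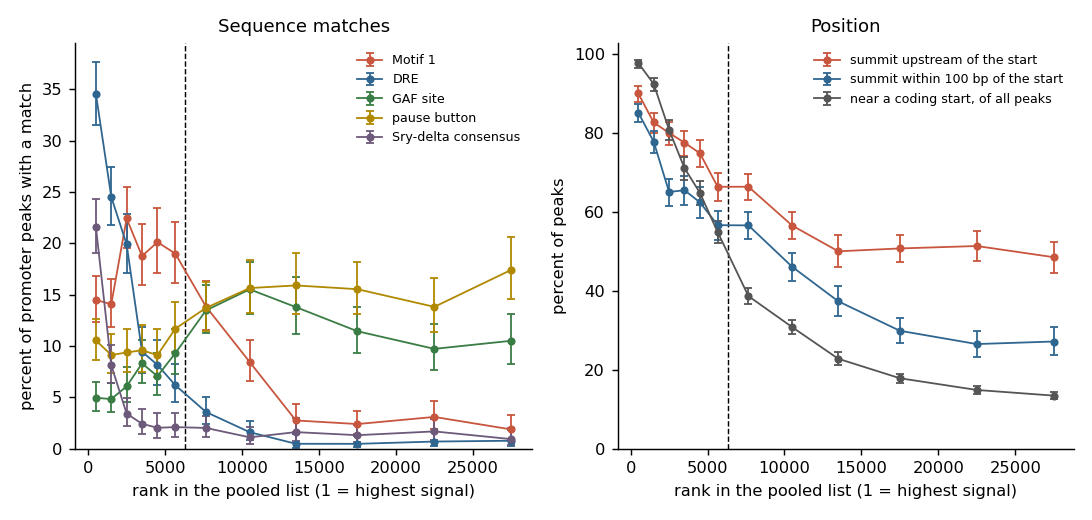
Shares by rank in the pooled list (rank 1 is the highest signal), with exact 95% intervals: left, promoter peaks with a match to each of 5 elements (GAF site is GAGAGA); right, promoter peaks with the summit upstream or within 100 bp of the start, and all peaks with a coding start within 500 bp. The dashed line is the limit of the optimal set at rank 6318, left of which lie optimal promoter peaks and right of which lie weak ones; Motif 1 is in 19.0% just left of it and 13.8% just right of it.

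A count of all 7-base words, made without choosing elements, was led by Motif 1. Words were compared within 50 bp of the summit and in windows of equal length centred 300 bp away; 20 words were more frequent at weak summits (0.244% of all words) and 17 less frequent (0.208%), by exact McNemar tests with Benjamini-Hochberg adjustment. These tests too set summits that the rule placed near starts against sequence farther away. GGTCACA, part of Motif 1, was in 152 members (3.43% against 0.958% of flanks), a ratio of 3.58, with 2.20 in the list of replicate 3 and 2.73 in that of replicate 4. CGGTCAC had a ratio of 3.81, with 1.83 in the list of replicate 3, where it did not pass (exact McNemar adjusted p = 0.108), and 2.70 in that of replicate 4. The next were GTCACAC (3.21) and AGTGTGA (2.38), also of Motif 1, which passed in both lists. The word ACAGCTG, an E-box, had a ratio of 1.85, and AAATACC had 1.78 but did not pass in the list of replicate 3 or against the left-hand window. Of the 20 words 2 held CGATA, and of the 10 with the highest ratios among words in at least 2% of members 0 did. The less frequent words were led by TATAATA (1.89% against 3.40%, ratio 0.56). In the list of replicate 3 alone 40 words were more and 59 less frequent, and in that of replicate 4 alone 14 and 0; 7 and 12 of the 20 words were among those more frequent, and no less frequent word passed in replicate 4. Against the left-hand window 10 words were more frequent, 7 of them among the 20, and 10 less frequent.

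The share of genes with a weak peak differed widely between gene lists, from 5.08% of odorant receptor genes to 64.7% of ecdysone response genes. Lists are described by their counts beside the 23.6% of all coding genes with a weak peak and the 39.1% with an optimal one. Under the rule a start with an optimal peak seldom had a weak one, which lowers the weak share where optimal peaks are common. Among genes with no optimal peak, 30.8% of all coding genes had a weak one. On that count it was 69.2% of ecdysone response, 80% of mitochondrial ribosomal protein, 57.1% of ribosomal protein and 5.08% of odorant receptor genes. Of 21 segment polarity, Wnt and Hedgehog genes, 12 had a weak peak (57.1%) and 7 an optimal one. Those with weak peaks alone included nkd, a feedback inhibitor of Wnt signalling (pooled signal 90.5), wg, the Wnt ligand (82.4), Su(fu), an inhibitor of Hedgehog signalling (78.9), and ptc, the Hedgehog receptor (76.5). The wg peak, 155 bp upstream of its start, had 43.1 in replicate 3 and 39.4 in replicate 4, and nkd had 36.7 and 55.4.

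Among factors that set up the body plan the weak peaks were scattered. Of 11 pair-rule genes, 6 had a weak peak: odd (61.8), opa (52.9), hry, the gene hairy (51.0), ftz-f1 (48.1), slp1 (42.6) and Ten-m (23.5), whereas eve, run, ftz, prd and slp2 had no pooled summit. For odd the replicates gave 17.7 and 37.9, for opa 29.8 and 17.9 and for hry 34.96 and 22.8, and their order differed between the replicates. Of 12 gap and head gap genes, cnc, btd (45.9), slp1 and kni (30.8) had a weak peak, and hb, Kr, knrl, gt, tll, hkb and ems had no pooled summit; oc had an optimal peak (104). Of 12 genes of the Hox clusters, 3 had a weak peak: Antp (46.4; 19.96 in replicate 3 and 39.9 in replicate 4), lab (35, in replicate 4 alone) and Scr (32.7, in replicate 3 alone). Within that list bcd had an optimal peak (480), and pb, Dfd, Ubx, abd-A, Abd-B, zen, zen2 and ftz had no pooled summit.

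As many neural fate genes had a weak peak as had no pooled summit, and almost none had an optimal peak. Of 26 neural fate factors, 13 had a weak peak (50%), 1 an optimal one and 13 no pooled summit. Grainy head (grh), a regulator of epidermis and neuroblasts, had 92.6, with 48.6 in replicate 3 and 46.6 in replicate 4. SoxN, a neuroectodermal HMG factor, had 83.1, with 39.2 and 37.0, and pros, which is segregated at neuroblast division, had 72.6, with 34.8 and 25.8. All 3 were in both replicate lists. Of 25 cell adhesion and axon guidance genes, 11 had a weak and 10 an optimal peak, with Fas2 (95.4), Sema1a (95.4), sli (55.2) and NetA (50.2) among those with weak peaks alone. Voltage-gated ion channels had 7 of 15, led by Elk (51.1) and SK (42.5), and synapse genes 8 of 25, led by cpx, complexin (52.8), and Syt1, synaptotagmin (48.2). Among genes with no optimal peak, it was 6 of 13 ion channel genes (46.2%) and 6 of 22 synapse genes (27.3%), against 30.8% of all coding genes. With a single start as well, it was 2 of 3 and 2 of 14 (14.3%), against 25.5%. Median gene length was 52757 bp for ion channels and 21373 bp for synapse genes, against 2145 bp for all coding genes.

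Several other regulatory lists were above the share of all genes by count. The largest share among the 27 lists was that of ecdysone response genes, 11 of 17 (64.7%), with ImpL2 (51.8), Eip74EF (44.8), MsrA (41.9) and the receptor EcR (41.5). Nuclear receptors had 10 of 21, dorsoventral and BMP genes 9 of 18, Notch pathway genes 8 of 19, muscle and mesoderm factors 8 of 18 and early zygotic genes 6 of 14. Dad, an inhibitor of BMP signalling, had 67.5 with 39.3 in replicate 3 and 39.8 in replicate 4, and E(spl)m7-HLH, a Notch target, had 83.8 with 44.4 and 47.3. Gene length and number of starts differed between these lists: the median was 33354 bp and 3 starts in the ecdysone response list and 22386 bp and 2 starts for nuclear receptors, but 1877 bp and 1 start for early zygotic genes, against 2145 bp and 1 start for all coding genes. Among genes with a single start and no optimal peak, 25.5% of all coding genes had a weak peak, against 8 of 11 in the segment polarity list, 3 of 4 ecdysone response genes, 4 of 7 pair-rule genes, 6 of 17 neural fate factors, 2 of 8 gap genes, 2 of 8 early zygotic genes, 1 of 6 nuclear receptors and 0 of 5 in the Hox clusters. High shares on this measure were not particular to regulatory lists. It gave 7 of 9 mitochondrial ribosomal protein genes, 3 of 3 replication and cell cycle genes and 2 of 5 ribosomal protein genes. For insulator and architectural protein genes it gave 0 of 4, and for odorant receptor genes 2 of 57.

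Stress and muscle genes held a mixture. Of 20 heat shock genes 8 had a weak peak, led by Hsf, the heat shock factor (93.2; 64.5 in replicate 3 and 46.3 in replicate 4), and Hsp68 (77.0; 51.9 and 27.4). Hsp22 and Hsp67Bc shared 1 peak between their starts (56.4), which lay nearest to CG4456. That gene is the list entry Hsp67Bb under its newer name, with its start 72 bp from the summit. All of these genes are counted among the 8 through this 1 peak. Of 24 actin and muscle structure genes 10 had one, among them Zasp52 (55.8), Mhc, the muscle myosin heavy chain (42.2), and Tm2, a tropomyosin (31.5).

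Genes of general cell upkeep mostly had optimal peaks. All 20 housekeeping reference genes had an optimal peak, and 4 also had a weak one. Of 80 cytosolic ribosomal protein genes, 73 had an optimal and 7 a weak peak (8.75%). Those with weak peaks alone included RpS9 (95.5), RpS3 (85.5) and RpS10a (32.9). RpS3 had ranks of 5906 in replicate 3 and 8387 in replicate 4. Of 72 mitochondrial ribosomal protein genes 62 had an optimal and 8 a weak peak, with mRpL44 (98.7), mRpS9 (96.9) and mRpL27 (96.4) just below the limit; the peak of mRpL44 lay nearest to Snr1, a subunit of a chromatin remodelling complex, and that of mRpL27 nearest to CG15435. All 30 replication and cell cycle genes had a peak of one kind or the other: 25 had an optimal and 9 a weak peak, and the 5 without one had a weak one, including Mcm2 (74.5) and Mcm3 (46.2) of the replicative helicase, stg, the Cdc25 phosphatase (52.3), and aurB, a mitotic kinase (37.9). Of 23 insulator and architectural protein genes, 2 had a weak peak and 19 an optimal one.

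Chemosensory, cuticle and immune effector genes mostly had no pooled summit. Weak peaks were at 3 of 59 odorant receptor genes (5.08%), 7 of 60 gustatory receptor genes, 6 of 59 ionotropic receptor genes, 13 of 123 cuticle protein genes (10.6%) and 2 of 21 antimicrobial and immune effector genes. Cytochrome P450 genes had 17 of 81 (21.0%), with 2 optimal peaks. Among genes with no optimal peak it was 17 of 79 (21.5%), against 30.8% of all coding genes. With a single start as well, it was 10 of 67 (14.9%), against 25.5%. Some weak peaks of these lists lay nearer to a neighbour: that of Ir60b (93.9) was 345 bp from its own start and nearer to that of Letm1, an ion exchanger of mitochondria. Among the odorant receptors the signals were 25.3 at Or67b, 22.64 at Or46a and 21.2 at Or85f, near the bottom of the list; Or46a had no peak in either replicate list.

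**Figure D5:**
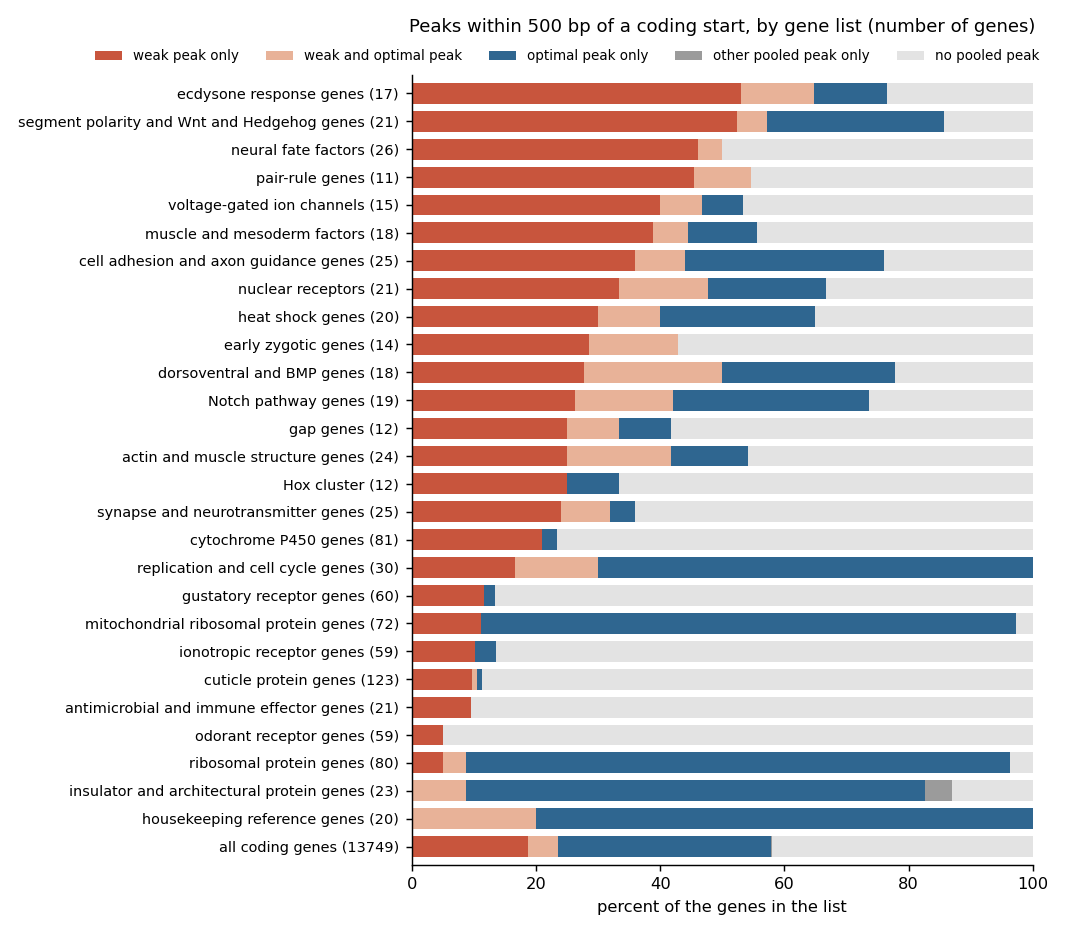
Percent of the genes of each list (number of genes in brackets) with a weak peak alone, with both kinds, with an optimal peak alone, with another pooled peak alone and with no pooled peak within 500 bp of a coding start, in order of the share with weak peaks alone and with all coding genes at the bottom. Ecdysone response and segment polarity genes have the largest shares of weak peaks alone, and housekeeping reference and insulator protein genes have none.

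Whole embryos of mixed ages hold many cell types, so a peak that is low because few cells are bound and one that is low because binding is weak in many cells cannot be told apart. How reads that match several copies were treated is not given in the sources used here, and peaks at genes with close paralogs, such as Hsp68, Act87E, the E(spl) genes or the Cyp6a genes, may share reads with them.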

How the data were processed

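Binding was measured by ChIP-seq of Sry-delta-GFP in 2 libraries of 1 group of whole embryos, labelled biological replicates 3 and 4. The authors deposited peak lists on dm6 for replicate 3, for replicate 4, for both pooled and for the optimal set. Per the README files, each peak carries a signal value and a −log10 q value, used here as deposited; each list has its own signal scale. The aligner, peak caller, control and cut-off of the optimal set (not given in the sources used here) could not be described, and the lists on dm3 were not used. With no read totals, depth is unknown; exact Clopper-Pearson 95% intervals cover counting over peaks only, and overlapping peaks share sequence.

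Coding starts (19291, of 13749 genes) came from Ensembl release 115 and sequence from RefSeq Release 6. Summits were assigned to the nearest start. Element and 7-mer matches on both strands were compared between the summit and a window to its right by two-sided exact McNemar tests with Benjamini-Hochberg adjustment at 0.05, and the script was tested on simulated data. Shares at flanks are means over both sides. The spans left out were 2L beyond 22.0 Mb, 3L beyond 22.9 Mb, 3R before 4.2 Mb and X beyond 22.6 Mb. The rule placed summits near starts, so these tests are not independent of it. The p-values measure spread between peaks of 2 libraries, not between embryos.

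The members, the gene lists and the elements were chosen with earlier results of these data known. Of 412 list entries given by symbol, 13 were matched under a newer name and 15 had no match and were left out. Genes were named by rule: the 12 highest members, 3 at the median and 3 lowest; up to 4 genes of each list with the highest weak peak and no optimal peak; all genes of the Hox, gap and pair-rule lists; the 3 peaks on each side of each limit; and of 7-mers in at least 2% of members, the 10 with the highest and the lowest ratio. Sequences came from the highest member off 1 arm for each element; some items that the rule names are not reported here. Alternatives varied the start window, the starts used, the distance from optimal peaks, the signal, the replicate list, the flanks, the side tested and overlapping members. Python 3.11.15, numpy 2.4.6, pandas 2.3.3, scipy 1.17.1 and matplotlib 3.10.9 were used.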

Additional observations from a re-analysis of the deposited data

How the results depend on the processing

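Depth is unknown and there is 1 group, so what depth limits cannot be given. No paired analysis was possible because both libraries belong to 1 group.

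The 6 elements called more frequent at weak summits (DRE, Motif 1, Motif 7, pause button, GAGAGA and CGATA) stayed past the test under every alternative run, and 6 to 9 elements passed. Every alternative kept summits near coding starts, so each carries the same contrast with sequence farther from starts that the rule set. The share of members in both replicate lists, 72.9%, was 75.1% with a window of 250 bp around starts, 65.3% with 1000 bp, 91.4% in the 2218 members with the highest signal, 69.3% with 1 member per merged region (an alternative chosen after seeing the data) and 61.8% where 50% of the member had to be covered. With the list of 1 replicate in place of the pooled list, overlap was asked with the other list only. That is a different measure, and it gave 74.3% for each replicate. The upstream share, 54.4%, was 49.2% with 1000 bp, 52.8% with the most 5′ start of each gene, 56.0% over 1000 bp from optimal peaks and 58.7% in the 2218 highest members, and 49.9% to 56.1% in the lists of single replicates. The share of members at genes without an optimal peak, 76.4%, was 78.9% with 250 bp, 67.2% with 1000 bp, 93.1% with the most 5′ start and 82.1% over 1000 bp from optimal peaks. Because the rule bars peaks that overlap an optimal one, this share follows in part from the rule under every setting.

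The number of elements less frequent at summits, 0, was 2 with 1000 bp, 1 with flanks 1000 bp away, 1 against the left-hand window (also chosen after seeing the data) and 0 to 1 in the lists of single replicates. The ratio of Motif 6 turned to 0.93 with 1000 bp, and with flanks 1000 bp away that of the TATA box turned to 1.08 and that of the Pleiohomeotic site to 0.87; none of the 3 had passed the test in the values reported. The 20 more frequent 7-mers became 62 with 250 bp, 38 with 1000 bp, 8 over 1000 bp from optimal peaks, 121 with flanks 1000 bp away and 10 against the left-hand window, and 14 to 40 in the lists of single replicates. The 17 less frequent became 51, 32, 4, 45 and 10 under those settings, 6 in the 2218 highest members, 9 in members of both lists, and 0 to 59 in the lists of single replicates. The cause was not tested.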
